A study of Drosophila melanogaster with 2 samples.

Results

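Binding of Krüppel (Kr) was examined at 5 genes that act beside Kr in the temporal series of neural stem cells: nub, pdm2, cas, grh and svp, out of 13945 protein-coding genes on the chromosome arms of Drosophila melanogaster. The genes were named from what is known of their function, but with earlier results of these data known. Every ChIP-seq summit lying in a gene or up to 10 kb to either side was taken. This gave 12 of the 2102 summits in the list thresholded by irreproducible discovery rate (IDR). It also gave 167, 162 and 143 of the 30000 summits each in the permissive lists of the pooled reads, replicate 2 and replicate 3. The data came from 1 group of 2 biological replicates, numbered 2 and 3, of whole embryos of mixed sex aged 0 to 10 h. Both came from 1 transgenic strain, Kr-GFP, which makes Kr with green fluorescent protein (GFP) at its C-terminal end. Chromatin was sheared by sonication, and anti-GFP antibody pulled down the fragments bound by the fusion protein. The labels do not say which promoter drives the transgene or whether the untagged Kr gene is also present. No group without the tag was analysed here. The embryos were not sorted, the peaks carry no cell type, and the files hold no expression by which neural tissue could be checked. In dm6 coordinates, nub (FBgn0085424) lies at 2L, 12587625 to 12628135, and pdm2 (FBgn0004394) at 2L, 12657165 to 12686306, both on the plus strand. The cas gene (FBgn0004878) lies at 3R, 5712975 to 5716805, on the minus strand. The svp gene (FBgn0003651) is at 3R, 12258737 to 12302785, and grh (FBgn0259211) at 2R, 17801132 to 17842820, both on the plus strand.

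In the embryonic nerve cord, neuroblasts express a fixed sequence of transcription factors, and each neuron takes its identity from the factor present when its mother cell was born. The zinc finger protein Hunchback (Hb) comes first and Kr follows. Next come the POU-homeodomain proteins Nubbin and Pdm2, products of the neighbouring paralogs nub and pdm2, then the zinc finger protein Castor (cas), and in many lineages Grainyhead (grh). In genetic studies Kr promoted expression of the pdm genes and held back cas. The product of svp, an orphan nuclear receptor of the COUP-TF family, closes the early window by switching off hb. All 5 genes are also used outside the nervous system. For example, nub and pdm2 are expressed in the segmenting embryo, and grh acts in the epidermis.

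The sequences shown first are from summits at nub and pdm2 with a core word known for Kr, and were chosen for having it. The pdm2 IDR summits of ranks 1140 and 1651 had no such word and are not shown. A further pdm2 summit with the word, of rank 1136, is also left out. Each sequence is 201 bases long, centred on the summit, and read from the RefSeq copy of the dm6 genome on its plus strand. Capitals mark the Kr core word AAGGGTT or its reverse complement AACCCTT. The svp sequence is shown as the only one of that gene's 3 summits with the word, and the cas sequence because it is the strongest summit at cas and has none. Replicate 3 had no summit within 250 bp of that cas summit. The next cas summit, of rank 2702, was in both replicates, had the word 52 bp away and is not shown.
nub intron upstream of the inner promoter, chr2L:12613184-12613384: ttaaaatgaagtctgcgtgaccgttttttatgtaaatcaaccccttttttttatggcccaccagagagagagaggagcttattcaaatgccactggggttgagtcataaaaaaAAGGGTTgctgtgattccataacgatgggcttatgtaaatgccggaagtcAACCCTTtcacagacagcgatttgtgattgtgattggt
nub inner promoter, chr2L:12618478-12618678: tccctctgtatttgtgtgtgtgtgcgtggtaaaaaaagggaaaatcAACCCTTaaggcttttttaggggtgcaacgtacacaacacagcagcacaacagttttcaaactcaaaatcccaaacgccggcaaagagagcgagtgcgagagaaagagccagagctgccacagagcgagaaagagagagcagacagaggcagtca
nub intron downstream, chr2L:12623217-12623417: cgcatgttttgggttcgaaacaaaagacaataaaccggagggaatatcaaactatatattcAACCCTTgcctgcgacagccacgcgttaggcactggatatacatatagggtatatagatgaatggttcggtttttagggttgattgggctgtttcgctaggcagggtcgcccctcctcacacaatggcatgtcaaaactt
pdm2 intron upstream of the inner promoter, chr2L:12672546-12672746: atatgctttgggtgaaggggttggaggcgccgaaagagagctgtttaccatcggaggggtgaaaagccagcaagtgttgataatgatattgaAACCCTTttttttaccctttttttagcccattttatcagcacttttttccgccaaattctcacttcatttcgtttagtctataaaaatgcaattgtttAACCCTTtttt
pdm2 intron downstream, the highest peak, chr2L:12681978-12682178: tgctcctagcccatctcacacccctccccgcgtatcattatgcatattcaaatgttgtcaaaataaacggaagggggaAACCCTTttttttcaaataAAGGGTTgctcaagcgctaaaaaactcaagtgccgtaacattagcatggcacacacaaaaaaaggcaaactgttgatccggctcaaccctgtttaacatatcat
svp first intron, chr3R:12261216-12261416: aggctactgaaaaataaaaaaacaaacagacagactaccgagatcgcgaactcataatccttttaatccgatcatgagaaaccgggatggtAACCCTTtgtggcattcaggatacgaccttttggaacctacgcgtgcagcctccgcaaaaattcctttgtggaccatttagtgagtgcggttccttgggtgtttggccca
cas promoter, below the IDR list, chr3R:5716816-5717016: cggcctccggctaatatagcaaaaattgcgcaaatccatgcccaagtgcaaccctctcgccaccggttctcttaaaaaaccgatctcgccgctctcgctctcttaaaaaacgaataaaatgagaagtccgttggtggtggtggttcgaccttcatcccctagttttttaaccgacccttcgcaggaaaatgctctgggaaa

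Peak height is the authors' signal value, on a scale that is not stated, and is used to rank peaks within 1 list. Of 4 lists used, the IDR list held 2102 peaks and served as the main list. It was identical to the 2102 highest peaks of the permissive list called on both replicates pooled, so a rank in it is also a pooled rank. Its peaks are thus those above a pooled height, and 2079 of the 2102 had a summit in both replicates. Signals in the IDR list ran from 103 to 1998, with a median of 133. The pooled list and the list of each replicate held 30000 peaks each and reach down to weak signal. Read counts were not in these lists, so the depth of each library is unknown.

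IDR summits were present at 4 of the 5 genes, 12 in all, and absent at cas. Among all protein-coding genes, 27.2% had at least 1 by the same rule. That share rose with gene length, at 24.8% for bodies under 10 kb, 38.6% for 10 to 30 kb and 46.8% over 30 kb. The gene with most was pdm2, which is 29142 bp long and had 5. Of genes of 10 to 30 kb, 2.05% had 5 or more, though pdm2 lies near the upper end of that class. The nub gene (40511 bp) and svp (44049 bp) had 3 each, a count reached by 16.3% of genes over 30 kb. At grh (41689 bp) there was 1, and the median of genes over 30 kb was 0. The cas gene is the shortest, at 3831 bp, and its count of 0 was that of most genes of its length. In a single group there is no contrast between conditions, so these counts are described beside the percentages and were not tested. Summits within 500 bp of a transcription start site (TSS) of any gene made up 3 of the 12, against 28.9% of all IDR summits.

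**Figure D1:**
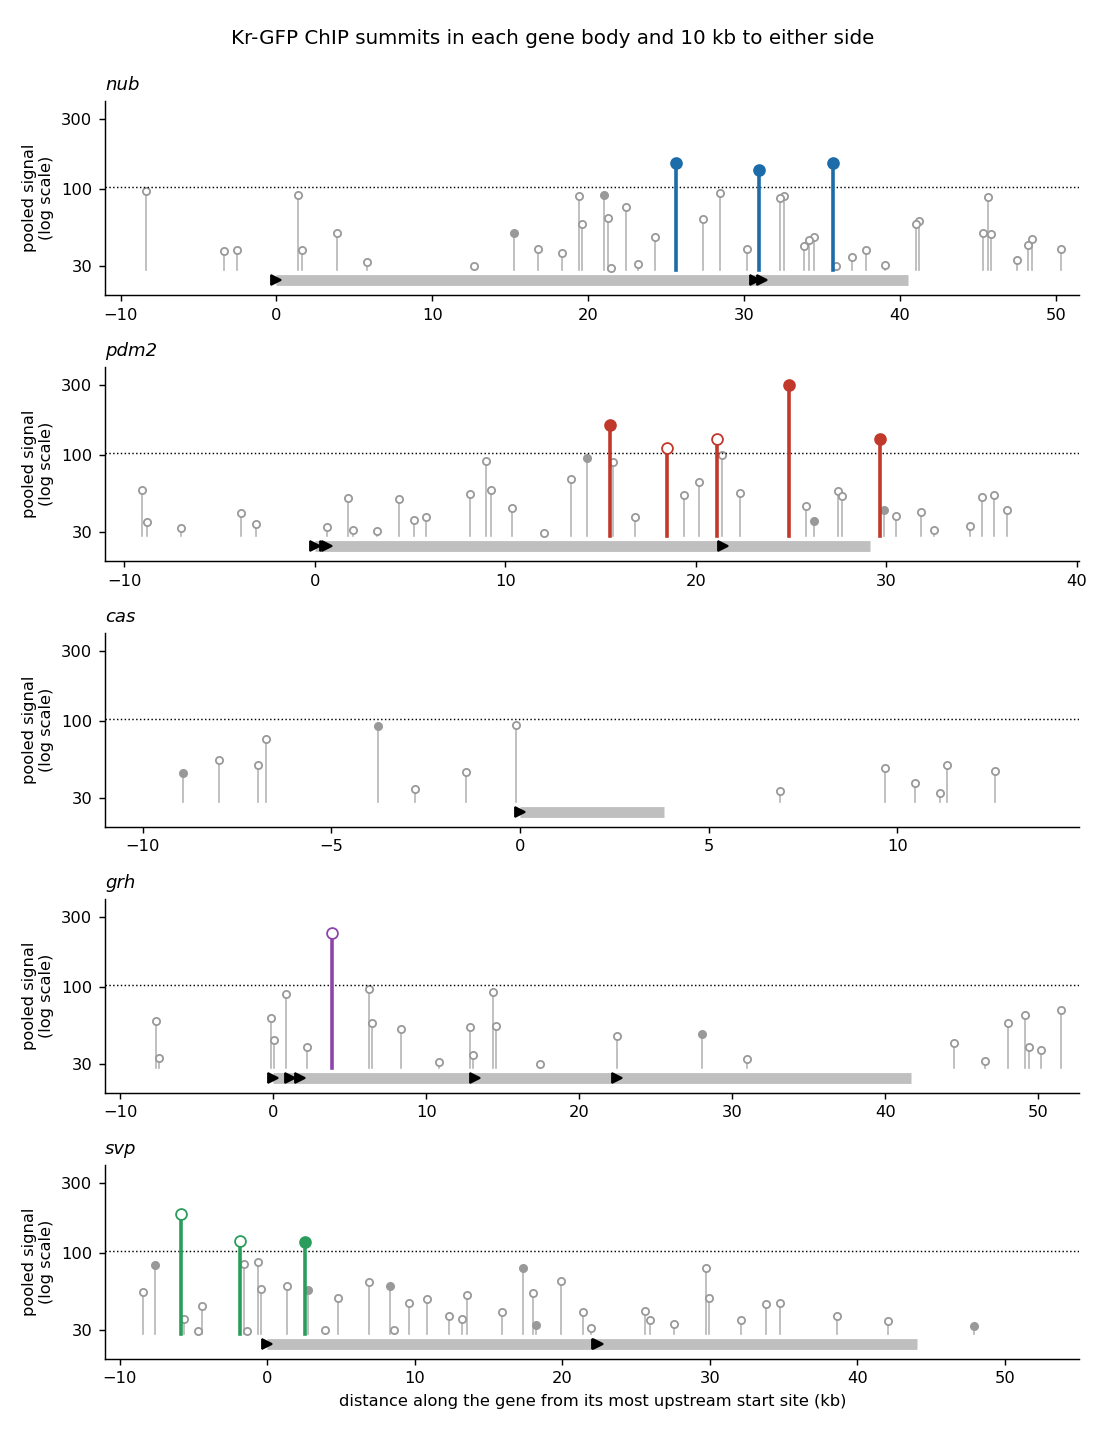
Summits of the pooled list in each gene body and 10 kb to either side, by distance along the gene from its most upstream start site (kb) and signal (log scale). Coloured stems are IDR summits, grey stems the rest, filled circles have the Kr word within 100 bp of the summit, grey bars are gene bodies, arrowheads are start sites and the dotted line is the lowest IDR signal, 103. IDR summits sit around the inner promoter at nub and pdm2 and near the upstream start site at svp and grh, and cas has none.

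The pdm2 gene, 1 of the pair that follows Kr in the neuroblast series, held the highest peak of the 5 genes. This peak (2L, 12681858 to 12682297) lay in the last intron, intron 4 of 4 of transcript FBtr0340540, 3474 bp downstream of the inner TSS. Its signal was 198 in replicate 2 and 137 in replicate 3 (mean 168 ± 43.1, SD, n = 2), and it ranked 66 and 90 in the replicate lists. In the pooled list it ranked 94 with a signal of 303. Its rank was thus high in each replicate, and the pooled summit fell on a copy of the Kr word. The summit of replicate 3 lay 1 bp from the pooled one, and the highest of replicate 2 lay 111 bp from it. Replicate 2 split this binding into a pair of summits, ranked 66 and 346, at 12681967 and 12682170, to either side of the word.

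The other IDR peaks of pdm2 were lower and were spaced along the gene, with 2639 to 4770 bp from each summit to the next. Upstream of the inner promoter, in intron 2, the peak at 2L, 12672426 to 12672865 measured 90.4 in replicate 2 and 76.5 in replicate 3 (mean 83.4 ± 9.82, SD, n = 2). It ranked 612, and its nearest TSS was that of Nepl7, a gene of the neprilysin-like family nested in pdm2, 2932 bp away. The peak in intron 3 (2L, 12675448 to 12675887) ranked 1651 with 67.0 and 54.7 in the replicates (mean 60.9 ± 8.63, SD, n = 2). These intronic peaks were close to equal in the replicates, at ratios of 1.18 and 1.22. At the inner promoter, 297 bp upstream of the TSS, the peak (2L, 12678087 to 12678526) ranked 1140 with 89.5 and 40.2 (mean 64.8 ± 34.9, SD, n = 2). The summit that gave its value in replicate 3 lay 227 bp away, near the edge of the matching distance of 250 bp. That replicate 3 summit was 70 bp from the TSS. It was also matched by a separate pooled summit below the IDR list, 71 bp upstream of the TSS and ranked 2220. The peak past the 3′ end (2L, 12686628 to 12687067) ranked 1136 with 93.5 and 37.5 (mean 65.5 ± 39.6, SD, n = 2), and its nearest TSS was that of the chaperonin gene CCT4, 6086 bp away. The promoter and 3′ peaks were thus over 2 times as high in replicate 2. The outer promoters of pdm2 were nearly bare. No pooled summit lay within 500 bp of the most upstream TSS, and the strongest near its outer neighbours ranked 25139 of 30000.

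At nub, the paralog, all 3 IDR summits lay within the gene and had the Kr word. The highest (2L, 12613064 to 12613503) was in intron 2 of 5 of FBtr0112642, 5061 bp upstream of the closer of the paired inner start sites. Replicate 2 gave it 91.4 and replicate 3 gave it 65.6 (mean 78.5 ± 18.3, SD, n = 2), and it ranked 739. The peak in intron 4 (2L, 12623097 to 12623536), 4534 bp downstream of the other inner TSS, had 108 and 48.2 (mean 78.2 ± 42.5, SD, n = 2) and ranked 748. At the inner promoter itself the peak (2L, 12618358 to 12618797) lay between the paired start sites, 205 bp from the nearer. This peak ranked 1016 and was the only 1 of the 12 higher in replicate 3, with 57.5 in replicate 2 and 76.9 in replicate 3 (mean 67.2 ± 13.7, SD, n = 2). The share of all IDR peaks higher in replicate 3 was not taken, so this only describes the peak. The 3 nub peaks were thus of much the same pooled height, between 136 and 152, and differed in which replicate was higher. No pooled summit came within 500 bp of the outer TSS. The 3′ part of nub overlaps Ref2, an RNA export factor gene on the opposite strand, whose body spans all 3 summits and whose TSS is 1808 bp from the highest. Assignment of these peaks to nub rather than Ref2 was not tested. With replicate 3 alone, the 2102 highest peaks held 5 summits at nub, the added pair being in introns and ranked 1283 and 1981.

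The neighbouring paralogs showed a similar order of peaks. Each had a peak at the inner promoter, a peak with the word in the intron upstream of it (5061 bp at nub, 5958 bp at pdm2), and a peak with the word in the intron downstream (4534 bp at nub, 3474 bp at pdm2). In each, the upstream intronic peak had a pair of words, and the outer promoter had no IDR summit. At the inner promoter, the nub peak had the word and the pdm2 peak had none. The pdm2 gene had a further intronic peak without the word, 2936 bp upstream of its inner TSS and so nearer than the matched one. Neither that peak nor the pdm2 peak past the 3′ end had a counterpart among the IDR summits of nub. Below the IDR list, nub had a pooled summit in intron 3, 2254 bp upstream of the inner start sites. It ranked 2624, with 43.2 and 45.8 in replicates 2 and 3. A pooled summit past the 3′ end of nub ranked 3081, with 62.8 and 19.5. Between the gene bodies lie 29.0 kb with no IDR summit but 18 pooled ones. The resemblance was noticed after the values were seen.

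The single IDR peak of grh (2R, 17804780 to 17805219) ranked 230, the next highest of the 12 after the top pdm2 peak. It lay in intron 2 of 13 of FBtr0345791, 2133 bp downstream of the third of 5 start sites. Signals were 121 in replicate 2 and 106 in replicate 3 (mean 114 ± 10.4, SD, n = 2), with ranks of 354 and 202. The replicates were close to equal here, at a ratio of 1.14. No Kr word lay within 100 bp of the summit. The next pooled summits of grh, at ranks 2449, 2714 and 2885, had signals of 96.5, 92.6 and 90.4, under the IDR list's lowest value of 103. Of these, the first was in the same intron with 67.5 and 29.2 in replicates 2 and 3, and the last was at the promoter of the second TSS with 37.9 and 51.8. In the 2102 highest peaks of each replicate alone, grh had 2 summits in replicate 2 and 3 in replicate 3.

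At svp, which closes the Hb window, the IDR summits clustered at the 5′ end. The highest (3R, 12252644 to 12253083) was intergenic, 5873 bp upstream of the first TSS, and ranked 436. Its signal was 135 in replicate 2 and 63.0 in replicate 3 (mean 98.8 ± 50.7, SD, n = 2), and the nearest start site was that of CG3942 at 1323 bp. A lower peak (3R, 12256661 to 12257100), 1856 bp upstream of the first TSS, ranked 1366 with 96.8 and 29.9 (mean 63.3 ± 47.3, SD, n = 2). That TSS is shared with CG44037, a gene that overlaps the 5′ end of svp. The last, in intron 1 (3R, 12261096 to 12261535), ranked 1428 with 88.8 and 29.0 (mean 58.9 ± 42.3, SD, n = 2). It was also within 500 bp of the TSS of the nested gene CG44038. All 3 were over 2 times as high in replicate 2 as in replicate 3, with ratios of 2.14, 3.24 and 3.06. In replicate 3 the lower pair ranked 5736 and 6206, outside its 2102 highest peaks. The inner start sites of svp had only a weak pooled summit nearby, of rank 27446. Near them replicate 2 had a summit with 37.9, ranked 7614, and replicate 3 had one with 17.3, ranked 21557.

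No IDR summit lay at cas, which follows the pdm genes in the series. Its highest pooled summit (rank 2591, signal 94.5) was at the promoter, 111 bp upstream of its only TSS. Replicate 2 had a peak there with a signal of 96.8, ranked 700, whereas replicate 3 had no summit within 250 bp. The 12 IDR summits of the other genes each had a summit in both replicates, as did 98.9% of all IDR summits. The IDR list is also the highest part of the pooled list, and this cas summit, at 94.5, was below its lowest signal of 103. The comparison thus runs across a cutoff of pooled signal and is no contrast between the genes. A summit 3771 bp upstream of the TSS (rank 2702, signal 92.8) was found in both replicates, with 50.1 and 41.1 (mean 45.6 ± 6.34, SD, n = 2), and had the Kr word 52 bp away. Another 6738 bp upstream ranked 4458 with 62.6 and 29.6. Within 10 kb, the strongest summits of cas were thus just under the IDR list. The absence of an IDR summit depended on that distance, since one of rank 711 with the Kr word lay 11.1 kb upstream of the gene, with 76.7 and 74.1 in replicates 2 and 3. With replicate 2 alone, in its 2102 highest peaks, cas counted as occupied by its promoter.

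**Figure D2:**
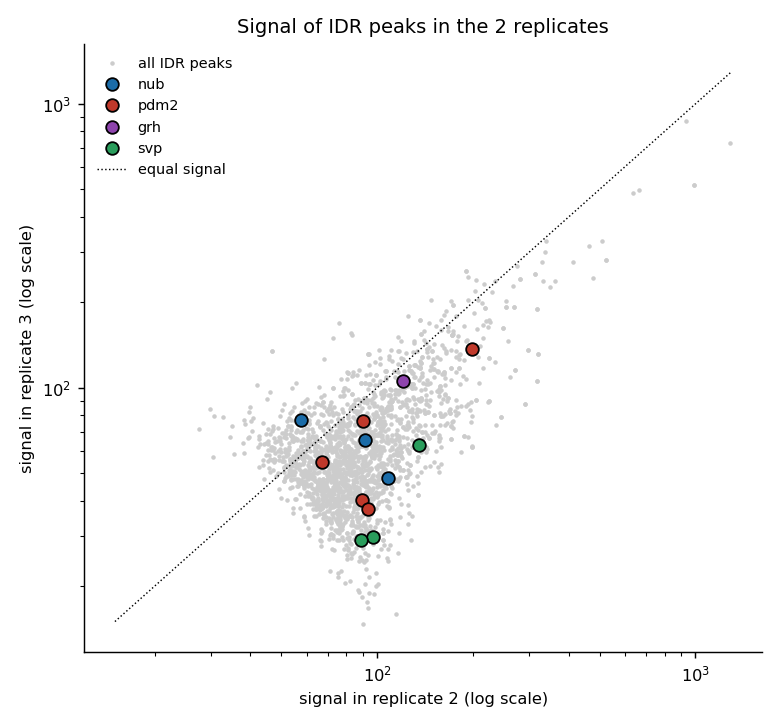
Signal in replicate 2 and replicate 3 (both on log scales) of the 2079 IDR peaks with a summit in each replicate, in grey, and of the 12 at nub, pdm2, grh and svp, coloured. The dotted line marks equal signal. Below it lie 11 of the 12, and the median ratio of replicate 2 to 3 over the 2079 peaks, 1.45, is also on that side. The 3 svp peaks are over 2 times higher in replicate 2, as are 23.0% of the 2079.

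All 12 IDR summits had a summit within 250 bp in each replicate's permissive list, as did 98.9% of all IDR summits. The ratio of replicate 2 to replicate 3 ran from 0.748 to 3.24 over the 12, against a median of 1.45 over the 2079 IDR peaks found in both. Ratios above 2 were seen at 6 of the 12 and at 23.0% of all those IDR peaks. They comprised all 3 at svp, 2 at pdm2 and 1 at nub. Depth and library quality of the replicates could not be compared, and their part in these ratios was not tested.

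The pooled list, which holds the 12 IDR summits and 155 weaker ones at these genes, was dense there. It had 43 summits at nub, 42 at pdm2, 42 at svp, 26 at grh and 14 at cas. Per kb of gene and flanks this was 0.855 at pdm2, 0.711 at nub, 0.656 at svp, 0.587 at cas and 0.421 at grh, where the median over protein-coding genes was 0.191. A density at least as high as that of pdm2 was found at 1.18% of protein-coding genes, and for nub, svp, cas and grh the shares were 2.63%, 3.76%, 5.77% and 15.3%. In replicate 2 the densities were 0.611 (nub), 0.773 (pdm2), 0.713 (cas), 0.47 (grh) and 0.64 (svp), and in replicate 3 they were 0.645, 0.672, 0.504, 0.357 and 0.578 in the same order. The lowest was at grh in each replicate, and pdm2 had the highest. The IDR list and the pooled list share their reads, so these densities do not stand apart from the IDR counts. Of the pooled summits, 78.6% at cas, 65.4% at grh, 64.3% at svp, 62.8% at nub and 54.8% at pdm2 had a summit of each replicate within 250 bp. Over all 30000 the share was 52.5%. Closely spaced pooled summits can match the same replicate summit.

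Of the pooled summits below the IDR list, 27 of 40 at nub, 28 of 39 at svp and 18 of 37 at pdm2 were in introns. At grh, which has 5 start sites, 8 of 25 were in introns and 7 at its own promoters. The cas gene had no intronic summit among its 14, with 1 at the promoter, 7 upstream and 6 downstream. No share by place was taken over all pooled summits or over the bases of these genes. These counts thus only describe where the summits lay. The strongest nub summit below the IDR list lay 8373 bp upstream of the outer TSS (rank 2438), with 53.2 and 44.3 in the replicates (mean 48.8 ± 6.27, SD, n = 2). That of pdm2 (rank 2220) adjoined its promoter peak and matched the same replicate peaks. The next, in intron 2 with a Kr word, ranked 2485 with 41.7 and 56.6 (mean 49.1 ± 10.5, SD, n = 2). That of svp, 636 bp upstream of the first TSS, ranked 3122 with 52.8 and 34.5 (mean 43.7 ± 13.0, SD, n = 2). A weaker svp summit 7633 bp upstream (rank 3528) had 2 Kr words, with 48.4 and 29.8 in the replicates. These summits were found in both replicates, and at the pdm2 intron replicate 3 was the higher.

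The Kr word was common at nub and pdm2. It was sought on both strands within 100 bp of the summit, and 7 of the 12 IDR summits had it, against 12.5% of all IDR summits. The 7 were 3 of 3 at nub, 3 of 5 at pdm2, 1 of 3 at svp and 0 of 1 at grh. There were 10 copies in all, since the upstream intronic peaks of nub and pdm2 and the top pdm2 peak had a pair each. Of the 12 summits 3 (25.0%) had 2 or more copies, as did 21 of 2102 IDR summits (0.999%). Distances from the pooled summit to the nearest copy were 0 and 5 bp at the pair of highest pdm2 peaks. They were 6 bp at svp, 16, 36 and 51 bp at nub, and 56 bp past the 3′ end of pdm2. At 4 of the 10 copies the word directly followed 5 A, as in aaaaaAAGGGTTtcaat at 12672638 and aaaaaAAGGGTTaaaca at 12672736, both in pdm2 on 2L and written along the strand of the word. No share of copies that follow such a run of A was taken over all IDR summits, so this only describes these copies. Among pooled summits below the IDR list, 14 of 155 at the 5 genes had the word (9.03%), against 4.39% of all 27898. These shares are descriptions of the windows, and a word within them is not shown to be a bound site.

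**Figure D3:**
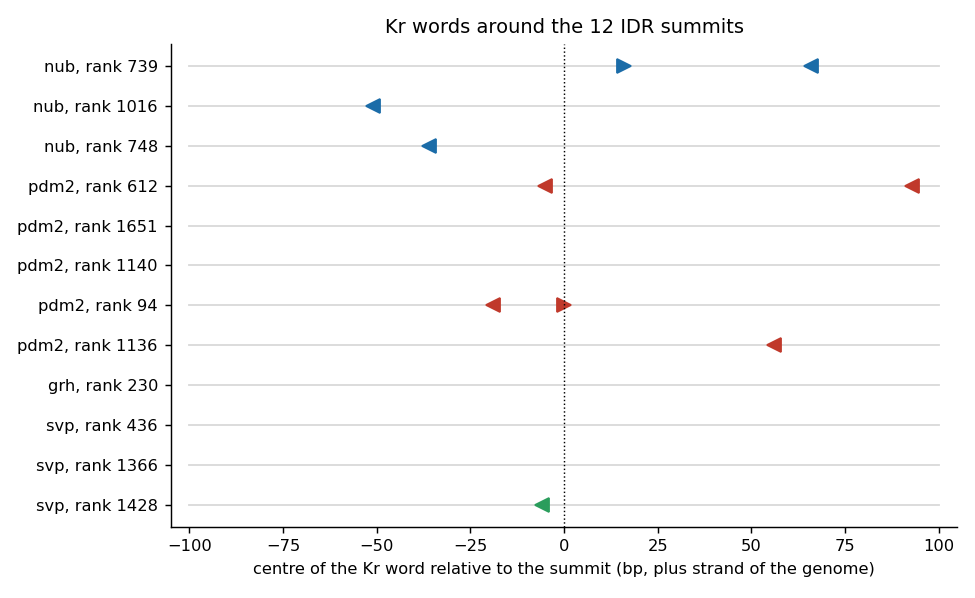
Position of each copy of the Kr word within 100 bp of the 12 IDR summits, as bp from the summit to the centre of the word on the plus strand of the genome. Triangles point right for the plus strand and left for the minus strand; 10 copies lie at 7 summits, and 6 of those summits are at nub or pdm2.

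Words of other factors of the early embryo were sought in the same windows. The Hb word ATAAAAAA was found at 4 of the 12 summits (1 at nub, 1 at pdm2 and 2 at svp), against 5.0% of all IDR summits. At the highest nub peak 1 of 3 copies directly adjoined a Kr word, and no copy overlapped one. The word GAGAGAG of GAGA factor, a chromatin protein, was at 2 of 3 nub summits and at none of the other 9, against 9.37% of all IDR summits. The word CAGGTAG of Zelda, a factor that opens early chromatin (3.28% of IDR summits), the POU octamer ATGCAAAT (3.14%) and the Grh word AACCGGTT (0.238%) were at 0 of the 12. With shares this low, 0 of 12 shows only that these letters are not in these windows.

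Other genes of neuroblast timing were described by the same rule. Of 4 further genes of the nerve cord series, hb, Kr and danr had IDR summits, and dan did not. Those of hb (4 summits, best rank 119) and Kr (6 summits, best rank 161) had 180 and 118, and 177 and 80.4, in replicates 2 and 3 at their best peaks, the hb one at the promoter of CG44227. The best danr peak, at its promoter, ranked 834 with 102 and 53.2. In the optic lobe and intermediate progenitor series, 9 of 15 had one, among them slp1 and slp2, which share a peak of rank 102 with 142 and 144 in the replicates. The homeobox gene hth had 13 (best rank 291), and the Sox gene D had 3 (best rank 330). The others with one were opa, gcm, tll, klu and Oaz, and those without were erm, ey, hbn, scro, B-H1 and B-H2. Of 8 genes of later timing, EcR, Imp, chinmo and br had IDR summits, with best ranks of 894, 1089, 1167 and 1696, the br one at the promoter of CG3740. None was found at Syp, lin-28, mamo and Eip93F. Among 4 relatives of the 5 genes, only the POU gene vvl had one, ranked 55 with 191 and 147. The POU genes pdm3 and acj6 had none and neither did gem, a relative of grh. In all 17 of these 31 genes (54.8%) had an IDR summit, against the 27.2% of all protein-coding genes. By length, they were 9 of 14 under 10 kb (all genes 24.8%), 3 of 7 of 10 to 30 kb (38.6%) and 5 of 10 over 30 kb (46.8%). The shares were thus close to the background in the longer classes and above it in the short genes. The short genes count slp1 and slp2 separately, although their best peak is the same. The lists were chosen with earlier results of these data known, so no conclusion is drawn from these shares.

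**Figure D4:**
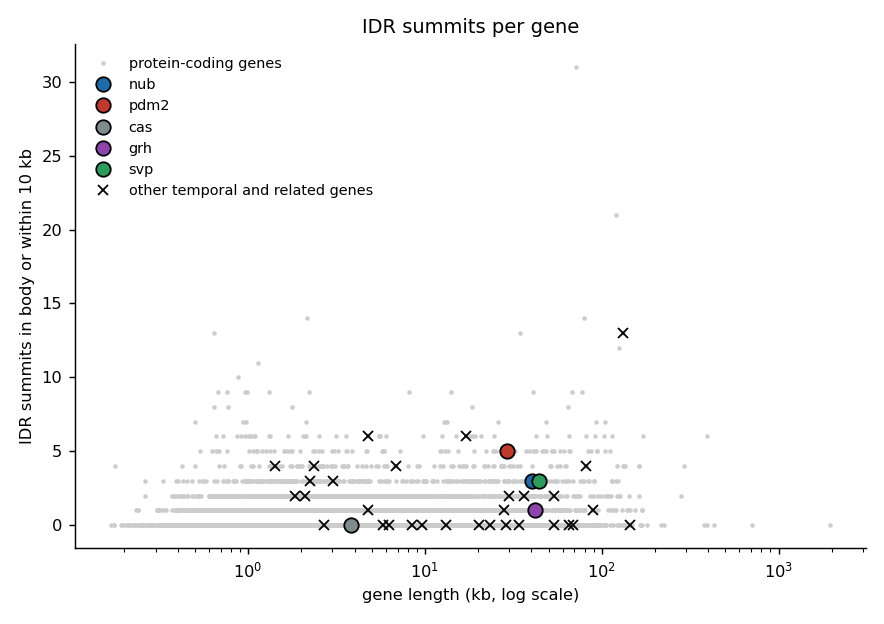
IDR summits per gene, flanks of 10 kb included (y axis), by gene length in kb (log scale) for 13945 protein-coding genes, in grey, with the 5 genes coloured and 31 other temporal and related genes as crosses. The pdm2 gene has 5, nub and svp 3, grh 1 and cas 0.

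Outside these lists, the genes most like each of the 4 occupied genes were those with the same number of IDR summits, a body length within 1.5 times, and the closest rank of the best peak. For pdm2 these were Meltrin (a metalloprotease gene, best rank 69) and plh (best rank 141), out of 12 candidates. For nub, with 30 candidates, they were smal (640) and Pvf3 (617, a growth factor ligand), and for svp, also with 30, caps (478) and Src64B (379, a kinase). For grh they were Dpp10 (228) and nAChRalpha5 (246, an acetylcholine receptor subunit), out of 98 candidates. The likeness is of number and height of peaks in this series alone.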

How the data were processed

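Peak lists for dm6 were used as deposited. Per the deposited text lists of files, the authors made permissive peak lists from each replicate's alignments and from both together, with a control, and then an IDR list. Caller, aligner and IDR threshold: not given in the sources used here. The authors' signal value per peak has no stated scale, and a q-value is deposited beside it as its −log10. The q-value was at most 0.00325 in the IDR list and up to 0.763 in the pooled list. Lists for dm3 were not used, since no coordinates were converted.

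Summits were the peak start plus the deposited offset, given from 1. Genes came from Ensembl release 115 (BDGP6), whose arms match the RefSeq dm6 sequence. A replicate's value is its highest summit within 250 bp. Promoters reach 500 bp from a TSS. Words were sought exactly. Scripts in Python 3.11.15 were tested on simulated data. Members, lists and words were chosen with earlier results of these data known. One listed gene, Oaz, was found under another symbol. Named genes were the 5, up to 4 per list by signal, genes with the TSS nearest to an IDR summit, and up to 2 look-alikes each. Genes counted in a list are also named. There was 1 group, hence no test, and the SD over 2 replicates includes their difference in scale. Other windows, match distances, promoter widths, words, a shorter IDR list and each replicate alone were tried.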

Additional observations from a re-analysis of the deposited data

How the results depend on the processing

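The number of genes with an IDR summit was 4 with windows of 5 kb, with gene bodies only, with the IDR list split at its median rank, upper part only, and by nearest TSS, and 5 with windows of 20 kb. The 12 summits became 11 with 5 kb, 9 in bodies only, 17 with 20 kb, 7 by nearest TSS and 7 in the upper part of the list. With the 2102 highest peaks of 1 replicate in place of the IDR list, genes ranged from 4 to 5 and summits from 15 (without replicate 2) to 17 (without replicate 3). Without replicate 2, nub had 5 summits and grh 3, and without replicate 3, cas had 1 and grh 2. By body alone, nearest TSS or the upper part svp had 1. By nearest TSS pdm2 had 3, and in the upper part 2. With 20 kb, cas had 1, grh 3 and svp 5. The share of all protein-coding genes was 18.0% with 5 kb, 41.7% with 20 kb, 5.52% in bodies, and 25.6% to 29.1% with 1 replicate. At a match distance of 100 bp, 10 of the 12 were found in both replicates, and at 500 bp all 12. Promoter summits numbered 1 at a half-width of 250 bp and 3 at 1000 bp. Shares of all IDR summits at these match distances and half-widths were not taken. The Kr word was at 5 summits within 50 bp, at 7 within 150 bp, at 7 as AAGGGT, and at 2 as AAGGGTTA, where all IDR summits had 9.18%, 14.2%, 19.4% and 5.14%. Permissive summits at the 5 genes numbered 167 pooled, 143 without replicate 2 and 162 without replicate 3. The cause of these differences was not tested. No paired analysis was possible because there was 1 group. Depth is unknown, and with 2 replicates each SD is imprecise.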

Other observations

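Several IDR summits lay just outside the 10 kb windows. Beside the cas summit 11.1 kb upstream of the gene, at 3R, 5727943, the nearest TSS was that of CG1239, 5570 bp away. At grh, a pair of summits 11.5 and 11.7 kb upstream of the body ranked 473 and 106. They lay at the promoters of CG5033 and Ubc10 and share their replicate signals of 138 and 154. At svp, summits 10.4 kb upstream and 11.1 kb downstream ranked 2005 and 2000, near the end of the IDR list.

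Each replicate also had high peaks at these genes that the IDR list lacks. In replicate 2, a summit in pdm2 ranked 1513 with a signal of 74.6, and the other replicate had 21.3 there. In replicate 3, a summit in the first intron of nub, 1440 bp past the outer TSS, ranked 1283 with 53.9, against 42.1 in replicate 2.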
